A study of Mus musculus with 8 samples.

Results

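Replication licensing was described in mouse fetal germ cells through 10 genes of the MCM helicase and its loaders: Mcm2, Mcm3, Mcm4, Mcm5, Mcm6, Mcm7, Mcm10, Cdt1, Cdc6 and Gmnn. They were found by gene symbol in the tables of both sexes, and the locus with the highest mean level was taken where a symbol was listed more than once. The 10 genes were found and tested in each sex, among 11529 tested genes of 23694 names in females and 12279 of 23409 in males.

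The germ cells came from E15.5 ovaries and testes and were sorted by the Oct4-EGFP transgene, a fluorescent reporter of germ cells. RNA-Seq gave 8 libraries, 2 in each of 4 groups: female Snf5 Ctrl, female Snf5 CKO, male Snf5 Ctrl and male Snf5 CKO. Snf5 CKO germ cells had the genotype Snf5 fx/Δ with TNAP-Cre. In this mouse line Cre sits in Alpl, the gene of an alkaline phosphatase of primordial germ cells, and removes the floxed exon 1 of Snf5, so that recombination depends on Alpl activity and was incomplete. Controls were mixed from Snf5 fx/+, Snf5 fx/Δ and Snf5 fx/+ with TNAP-Cre germ cells, so a deleted allele or Cre was also present among them. The labels give C57BL/6 as the strain of all 4 groups, whereas the methods of the study describe a mixed background. Each library was made from germ cells of 1 or more embryos, and male Snf5 CKO replicate 2 from 1 embryo. The comparison of Snf5 CKO with Snf5 Ctrl within a sex asks which transcripts differ in germ cells after deletion of Snf5, which encodes a core component of SWI/SNF, a complex that moves nucleosomes. Levels are in FPKM, mapped fragments scaled for library size and for the length of the transcript. Counts are not given, so the depth of a library is unknown beyond its relative value.

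Before a cell copies its DNA, the origin recognition complex marks replication origins, and Cdc6 and Cdt1 load rings of Mcm2 to Mcm7 there as inactive helicases. Mcm10 acts when these helicases are switched on, and geminin, the product of Gmnn, binds Cdt1 and prevents a repeat of loading within the same cycle. At this stage of development female germ cells have finished their last round of DNA synthesis and are in meiotic prophase, whereas male germ cells leave the cell cycle and stay arrested until after birth.

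Smarcb1, the symbol of Snf5 in the tables (chr10:75896769-75921614 of mm10), was at 23.4 and 22.3 FPKM in the female controls and at 4.24 and 2.47 FPKM in the female Snf5 CKO libraries. The male controls were at 141 and 167 FPKM and male Snf5 CKO at 8.73 and 10.1 FPKM. The groups did not overlap in either sex. The log2 fold change was -2.48 in females (SE 0.24, adjusted p = 0.00027 from limma) and -3.90 in males (SE 0.18, adjusted p = 0.0021), and the fall was smaller in females by 1.41 on the log2 scale (SE 0.31, adjusted p = 0.0086 for the difference between the sexes).

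In female Snf5 CKO germ cells 8 of the 10 licensing genes rose, beside 26.9% of all tested genes called higher and 34.6% called lower. A gene was called when its adjusted p from limma, over all tested genes of the table, was under 0.05. Mcm7, Mcm2 and Cdt1 had the largest female changes, Mcm3, Mcm4, Mcm6, Mcm10 and Cdc6 also rose, and Mcm5 and Gmnn did not pass the test. In male Snf5 CKO germ cells 8 of the 10 rose as well, beside 21.0% of all tested genes called higher and 25.3% called lower, and here Mcm6 and Mcm10 did not pass. The median log2 fold change of the 10 genes was 1.26 in females and 0.98 in males, against -0.13 and -0.07 over all tested genes. Within replicate 1 and within replicate 2, read as separate experiments from the column names in males and by inference in females, the median log2 difference of the 10 genes was 1.42 and 1.11 in females and 0.96 and 1.01 in males. With bulk RNA, fewer cells of a type and less RNA per cell cannot be told apart.

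The counts did not depend equally on the libraries. In females the number of licensing genes called higher was 7 or 8 with any library left out. In males it was 5 without control replicate 1, 3 without control replicate 2, 4 without Snf5 CKO replicate 1 and 5 without Snf5 CKO replicate 2. It was also 3 when each male library was rescaled to a common sum over named loci. That moved the median of all male genes by -0.16, and 1402 of 12279 male genes were called higher, against 2580 in the deposited scale. Fewer of all male genes were also called higher with any library left out. Named loci summed to 637948 and 792227 FPKM in the male controls and to 654338 and 1004897 FPKM in male Snf5 CKO. Relative to the median of all genes, the median of the licensing genes was 1.03 with that scaling and 1.06 without it. Mcm2, Cdc6 and Gmnn were called in males under each setting that was run. With replicate number as a block all 10 licensing genes were called higher in males, when 4313 of 12279 male genes were. A median-of-ratios rescaling moved the female median of all genes by 0.14, and relative to it the median of the licensing genes was 1.41, against 1.39 in the deposited scale.

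**Figure D1:**
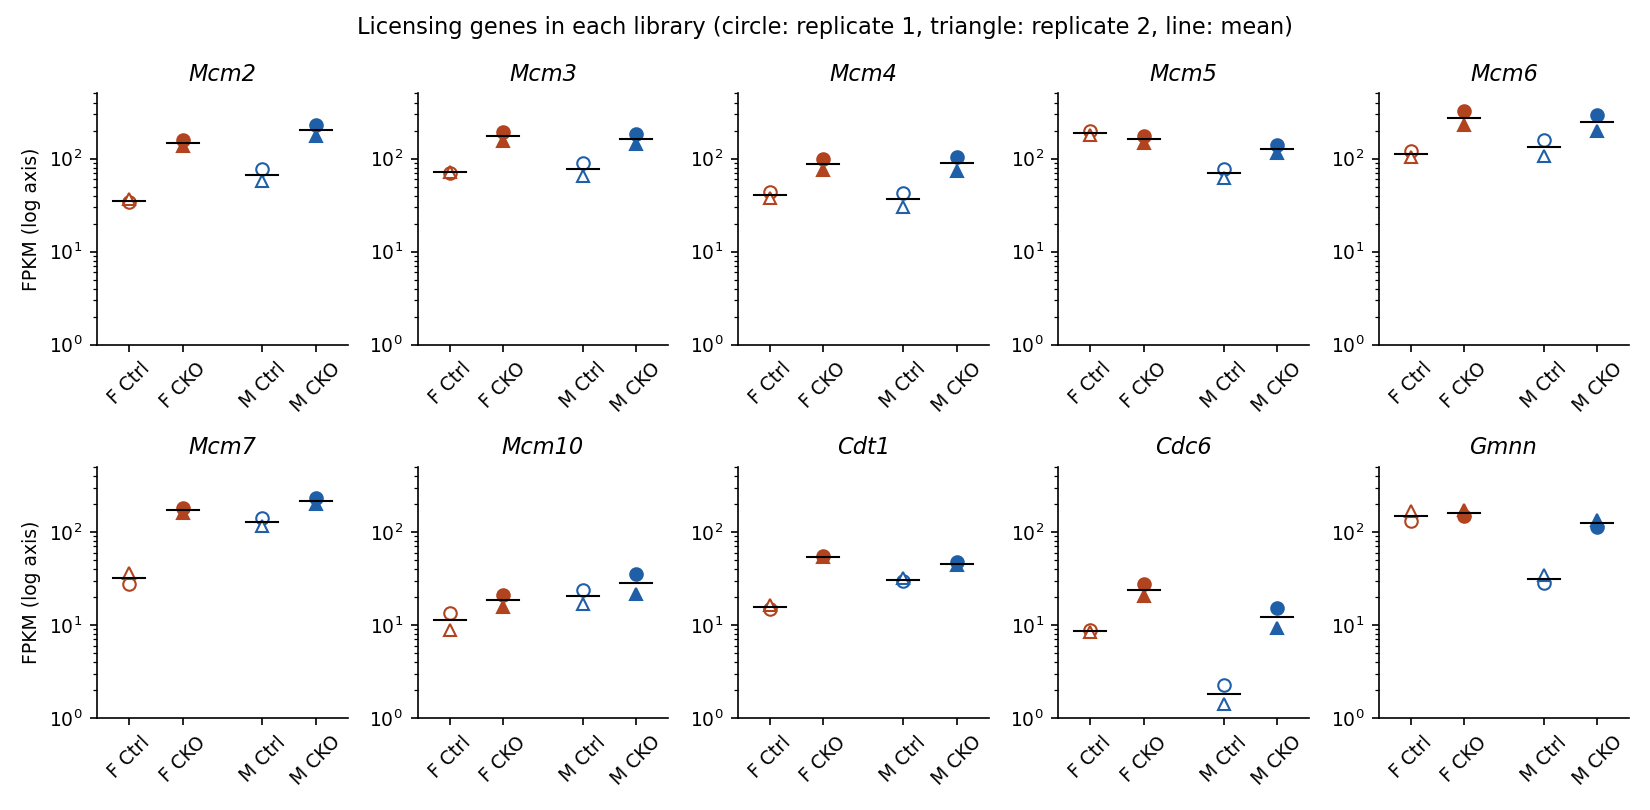
FPKM (log axis) of the 10 licensing genes in the 8 libraries, female in red and male in blue, controls open and Snf5 CKO filled, with a line at each group mean. Female Mcm7 stands at 27.8 and 35.96 FPKM in the controls and at 182 and 159 FPKM in Snf5 CKO, whereas female Mcm5 and Gmnn lie close together in both groups.

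Markers of germ cells and of other gonadal cells were summed in each library. Germ cell markers (Ddx4, Dazl, Pou5f1, Mael, Dnd1 and Dppa5a) summed to 1944 and 2031 FPKM in the female controls and to 3041 and 3229 FPKM in female Snf5 CKO. In males they summed to 4261 and 4628 FPKM in the controls and to 10409 and 12423 FPKM in Snf5 CKO. The higher sums depended on Dppa5a, at 127 and 191 FPKM against 1523 and 1744 FPKM in females and at 1139 and 1395 FPKM against 8243 and 10398 FPKM in males. The other 5 summed to 1817 and 1840 FPKM against 1519 and 1485 FPKM in females and to 3122 and 3234 FPKM against 2165 and 2025 FPKM in males. Dazl was the most abundant of them in the female controls, at 771 and 888 FPKM, and Dppa5a in the other 3 groups; none of the 6 was at 0 in any library. In females 3 of the 6 rose, beside 26.9% of all tested genes, and Mael fell, beside 34.6%. In males Dppa5a rose, beside 21.0% of all tested genes, and 3 of the 6 fell, beside 25.3%. The call of male Dppa5a was lost without control replicate 1 and without control replicate 2. Pou5f1, whose regulatory sequence drives the reporter used for sorting, was at 8.63 and 16.7 FPKM in the female controls and at 295 and 333 FPKM in female Snf5 CKO, and at 399 and 436 FPKM against 620 and 648 FPKM in males.

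Supporting cell markers, which mark Sertoli and pregranulosa cells, summed to 6.80 and 10.0 FPKM in the female controls and to 26.0 and 23.8 FPKM in female Snf5 CKO. The 6 of 9 that could be tested there rose, beside 26.9% of all tested genes, and fewer did without female Snf5 CKO replicate 1. Over the other settings that kept all libraries the number lay between 0 and 6. Foxl2, Wt1 and Nr5a1 reached the mean of 1 FPKM needed for a test only through Snf5 CKO. Their means in the controls were 0.73, 0.61 and 0.65 FPKM, so the count is partly set by that limit. Amh, Sox9 and Cyp26b1 were too low to be tested, and Amh and Cyp26b1 were lower in both Snf5 CKO libraries. Fst had the highest mean, though Gata4 led in control replicate 1 and Amhr2 in Snf5 CKO replicate 2. In males the same list summed to 39.6 and 32.5 FPKM in the controls and to 149 and 199 FPKM in Snf5 CKO. Of 7 tested markers 6 rose, beside 21.0% of all tested genes. Amh, the most abundant, was at 17.3 and 16.5 FPKM against 69.7 and 120 FPKM. Foxl2 was at 0 in some male libraries. Leydig cell markers summed to 4.74 and 4.89 FPKM against 12.01 and 11.8 FPKM in females, with Cyp11a1 and Cyp17a1 at 0 in some libraries. There 1 of 2 tested rose, beside 26.9% of all tested genes, and the number changed with the library left out. The other, Hsd3b1, reached the mean of 1 FPKM needed for a test only through Snf5 CKO. Its mean was 0.44 FPKM in the controls and 1.56 FPKM in Snf5 CKO. In males the Leydig cell markers summed to 85.7 and 58.2 FPKM against 19.2 and 15.1 FPKM. Of 5 tested there, 3 fell, beside 25.3% of all tested genes. Insl3, at a locus listed together with Jak3, was the most abundant in both sexes. The part of these cells in the changes of the licensing genes was not tested.

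Stromal markers, with Col1a1 the highest by mean and Col1a2 in both female Snf5 CKO libraries, summed to 7.77 and 2.499 FPKM in the female controls and to 1.51 and 1.995 FPKM in female Snf5 CKO. The male sums were 15.1 and 8.04 FPKM in the controls and 3.12 and 2.30 FPKM in Snf5 CKO. The sum of the blood and endothelial markers did not follow the groups in females, with 23.8 and 98.7 FPKM in the controls against 27.4 and 83.9 FPKM. Hbb-bs was the highest of them in each library except female Snf5 CKO replicate 1, where it was at 1.47 FPKM and Pecam1 at 24.3 FPKM. In males they summed to 60.5 and 99.7 FPKM in the controls and to 60.0 and 64.4 FPKM in Snf5 CKO. Ptprc was at 0 in some libraries of both sexes and Cdh5 in some female ones. Col1a1 fell in females, beside 34.6% of all tested genes, and Col1a1 and Pdgfra fell in males, beside 25.3%. Fewer fell in males without male Snf5 CKO replicate 2. These markers reached the mean of 1 FPKM needed for a test only through the controls. In Snf5 CKO the mean of Col1a1 was 0.38 FPKM in females, and those of Col1a1 and Pdgfra were 0.82 and 0.49 FPKM in males. The calls are thus partly set by that limit, and in females the other stromal markers were too low to be tested. Of the 3 blood and endothelial markers tested in females Pecam1 rose, beside 26.9% of all tested genes. Which cells its RNA came from was not tested. The number of blood and endothelial markers called lower in females was larger without female control replicate 1 or without female Snf5 CKO replicate 2.

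**Figure D2:**
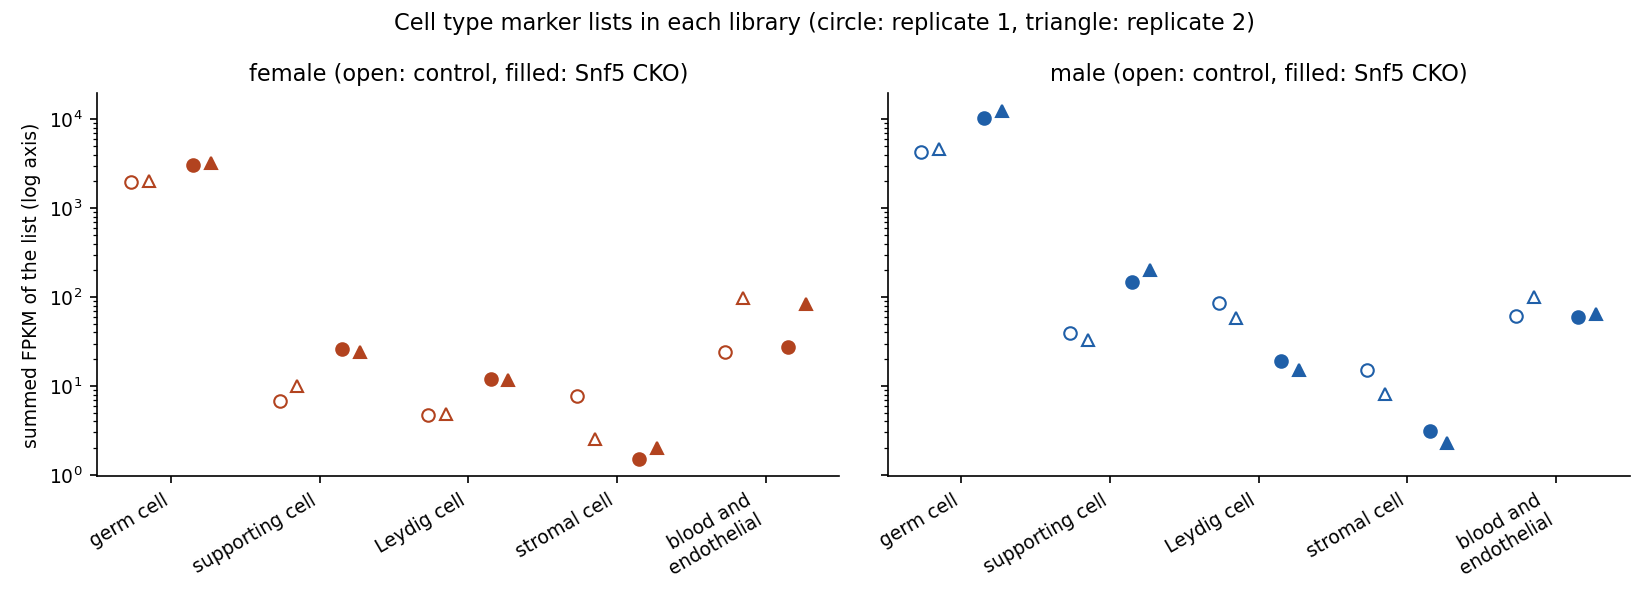
Summed FPKM (log axis) of 5 lists of cell type markers in each library, female on the left and male on the right, controls open and Snf5 CKO filled. Germ cell markers stand far above the other lists in all 8 libraries, and supporting cell markers lie higher in Snf5 CKO than in control in both sexes.

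Among the 6 subunits of the helicase ring, Mcm7 (chr5:138164589-138171862) had the largest female change. It was at 27.8 and 35.96 FPKM in the female controls and at 182 and 159 FPKM in female Snf5 CKO. Both Snf5 CKO libraries stood far above both controls, and the rise was 2.39 on the log2 scale (SE 0.20, adjusted p = 0.00017 from limma), with log2 differences of 2.67 and 2.12 within replicates 1 and 2. In males Mcm7 was already high in the controls, at 140 and 116 FPKM, and was at 231 and 199 FPKM in Snf5 CKO. The male groups did not overlap, but the rise was small, 0.74 on the log2 scale (SE 0.21, adjusted p = 0.037). Its male call was lost without any 1 of the 4 male libraries: the adjusted p was 0.11 without control replicate 1, 0.24 without control replicate 2, 0.20 without Snf5 CKO replicate 1 and 0.10 without Snf5 CKO replicate 2. It was also lost with the common sum (adjusted p = 0.27) and with unnamed loci kept in the fit (adjusted p = 0.052), and over all alternatives it lay between 0.00014 and 0.27. The locus of Mcm7 overlaps Cops6 on the other strand and holds the microRNA genes Mir25, Mir93 and Mir106b; the libraries were not strand-specific.

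Mcm2 (chr6:88883474-88898780), a subunit that also binds histones, was at 33.8 and 36.7 FPKM in the female controls and at 157 and 136 FPKM in female Snf5 CKO. The male controls were at 77.8 and 56.8 FPKM and male Snf5 CKO at 231 and 174 FPKM. Every Snf5 CKO library was above both controls of its sex. The log2 fold change was 2.02 in females (SE 0.17, adjusted p = 0.00019) and 1.58 in males (SE 0.25, adjusted p = 0.0078). Within replicates 1 and 2 the log2 difference was 2.18 and 1.86 in females and 1.56 and 1.60 in males.

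Mcm3, Mcm4 and Mcm6 shared a female rise of similar size. Mcm3 (chr1:20803014-20820213) was at 70.7 and 71.1 FPKM in the female controls and at 193 and 153 FPKM in female Snf5 CKO. Mcm4 (chr16:15623897-15637400) was at 44.1 and 37.8 FPKM against 98.9 and 75.0 FPKM. Mcm6 (chr1:128331591-128359656) was at 121 and 105 FPKM against 321 and 231 FPKM. For each of the 3 subunits both Snf5 CKO libraries were above both controls. The ratio of the group means was 2.44 for Mcm3 (log2 fold change 1.26, SE 0.19, adjusted p = 0.0015), 2.12 for Mcm4 (log2 fold change 1.06, SE 0.20, adjusted p = 0.0039) and 2.44 for Mcm6 (log2 fold change 1.26, SE 0.23, adjusted p = 0.0032). Within replicates 1 and 2 the female log2 difference was 1.44 and 1.09 for Mcm3, 1.15 and 0.97 for Mcm4 and 1.40 and 1.13 for Mcm6.

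In males Mcm3 was at 88.4 and 65.4 FPKM in the controls and at 184 and 144 FPKM in Snf5 CKO, a rise of 1.09 on the log2 scale (SE 0.24, adjusted p = 0.019). Mcm4 was at 42.6 and 29.96 FPKM against 104 and 72.9 FPKM, a rise of 1.26 (SE 0.27, adjusted p = 0.018). In both, replicate 1 was the higher library of each group, and the groups did not overlap. The call of Mcm3 was lost without control replicate 2 (adjusted p = 0.10), without Snf5 CKO replicate 1 (adjusted p = 0.071) and with the common sum (adjusted p = 0.085), within a range of 6.8e-05 to 0.10 over the alternatives. The call of Mcm4 was lost without control replicate 2 (adjusted p = 0.068), with the common sum (adjusted p = 0.057) and on linear FPKM (adjusted p = 0.057), within a range of 5.9e-05 to 0.068.

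The male table gives Mcm4 a locus that runs from 15623897 to 15842239 of chromosome 16 and so covers Prkdc, its neighbour on the other strand, which has a value of its own at the same position. Prkdc was at 18.7 and 11.4 FPKM in the male controls and at 9.66 and 4.87 FPKM in male Snf5 CKO (log2 fold change -0.98, adjusted p = 0.091). Its values and those of Mcm4 thus went in opposite directions. In the female table the loci are apart, and Prkdc was at 11.2 and 11.9 FPKM against 10.0 and 6.58 FPKM (log2 fold change -0.46, adjusted p = 0.12).

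Male Mcm6 was at 157 and 107 FPKM in the controls and at 290 and 198 FPKM in Snf5 CKO. The groups did not overlap, but replicate 1 was the higher library of both and the spread within a group was wide. The log2 fold change was 0.88 (SE 0.30) and did not pass the test, with an adjusted p of 0.066. With replicate number as a block the adjusted p was 8.2e-05, and over the alternatives it lay between 8.2e-05 and 0.30. The log2 difference was 0.88 within each replicate.

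Mcm5 (chr8:75109509-75128439) went apart from the other subunits in females. It was at 199 and 181 FPKM in the female controls and at 173 and 148 FPKM in female Snf5 CKO. Both Snf5 CKO libraries lay just under both controls, and the difference of -0.24 on the log2 scale (SE 0.20, adjusted p = 0.31) did not pass the test; it was -0.13 without female Snf5 CKO replicate 2. Relative to the median of all female genes it was -0.11, and the log2 difference was -0.20 and -0.29 within replicates 1 and 2. With replicate number as a block the adjusted p was 0.025, within a range of 0.025 to 0.75 over the alternatives.

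Male Mcm5 was at 77.9 and 61.9 FPKM in the controls and at 139 and 114 FPKM in Snf5 CKO, so that both Snf5 CKO libraries were above both controls. The rise was 0.85 on the log2 scale (SE 0.21, adjusted p = 0.027). The call was lost without any 1 of the 4 male libraries, with an adjusted p of 0.059 without control replicate 1, 0.16 without control replicate 2, 0.13 without Snf5 CKO replicate 1 and 0.051 without Snf5 CKO replicate 2. It was also lost with the common sum (adjusted p = 0.21), within a range of 0.00012 to 0.21.

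**Figure D3:**
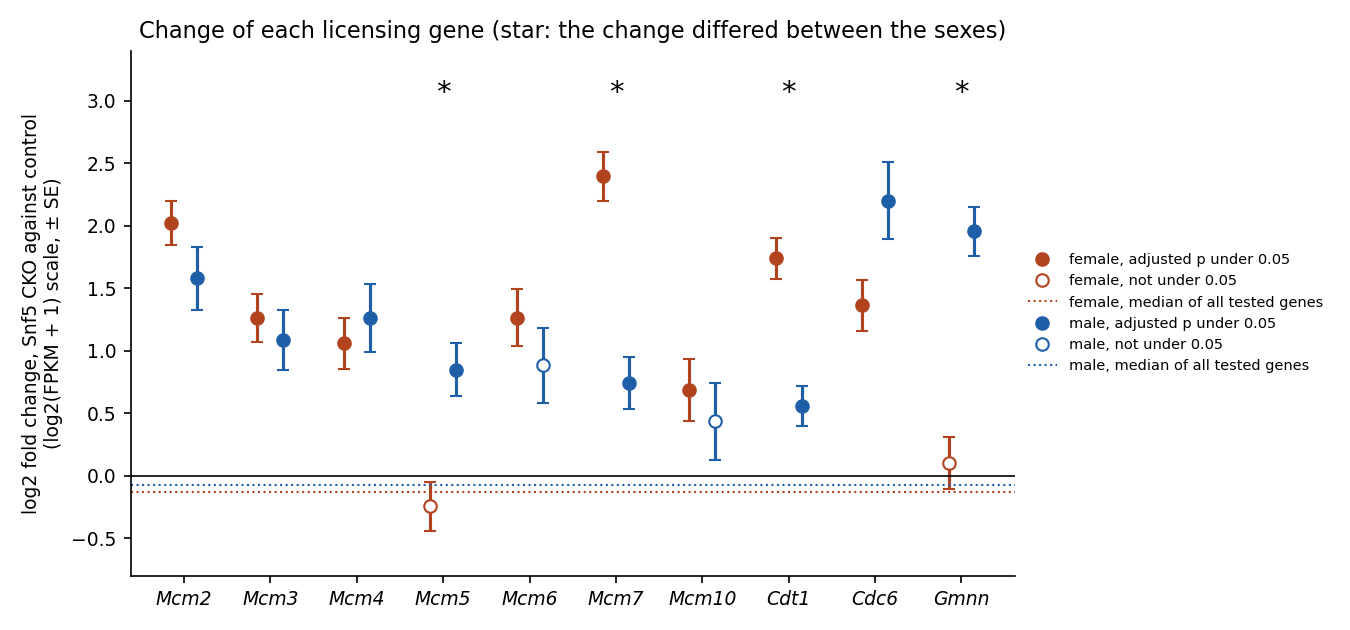
Log2 fold change of each licensing gene (points, with the SE as bars) in Snf5 CKO against control, on the log2(FPKM + 1) scale, female in red and male in blue, filled where the adjusted p was under 0.05; a star marks a tested difference between the sexes. Female Mcm7 stands at 2.39 and male Mcm7 at 0.74, and Gmnn at 0.10 and 1.95.

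Since the ring holds each of Mcm2 to Mcm7 in equal number, the share of each subunit in their summed FPKM was computed in every library, as a description with no test. The sum was 497 and 468 FPKM in the female controls and 1125 and 902 FPKM in female Snf5 CKO. The male sum was 584 and 437 FPKM in control and 1179 and 902 FPKM in Snf5 CKO. In each sex both Snf5 CKO sums were higher than both control sums, and the ratio of the means was 2.102 in females and 2.04 in males.

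The female controls had an uneven set of subunits. Mcm5 made up 40.1% and 38.7% of the sum there and 15.4% and 16.4% in female Snf5 CKO. Mcm7 made up 5.59% and 7.69% in the female controls and 16.2% and 17.7% in Snf5 CKO, and Mcm2 6.81% and 7.85% against 13.97% and 15.03%. The most abundant subunit exceeded the least abundant by a factor of 7.18 and 5.03 in the female controls, where these were Mcm5 and Mcm7. In female Snf5 CKO the factor was 3.24 and 3.08, between Mcm6 and Mcm4.

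The male libraries were more alike in their shares. Mcm5 made up 13.3% and 14.2% of the sum in male control and 11.8% and 12.6% in male Snf5 CKO. Mcm7 made up 24.0% and 26.6% against 19.6% and 22.0%, and Mcm2 13.3% and 13.0% against 19.6% and 19.3%. The factor between the most and the least abundant subunit was 3.69 and 3.88 in male control libraries and 2.78 and 2.72 in Snf5 CKO. In both sexes the Snf5 CKO libraries therefore had a smaller factor than the controls. Mcm4 had the smallest share in all libraries but the female controls.

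**Figure D4:**
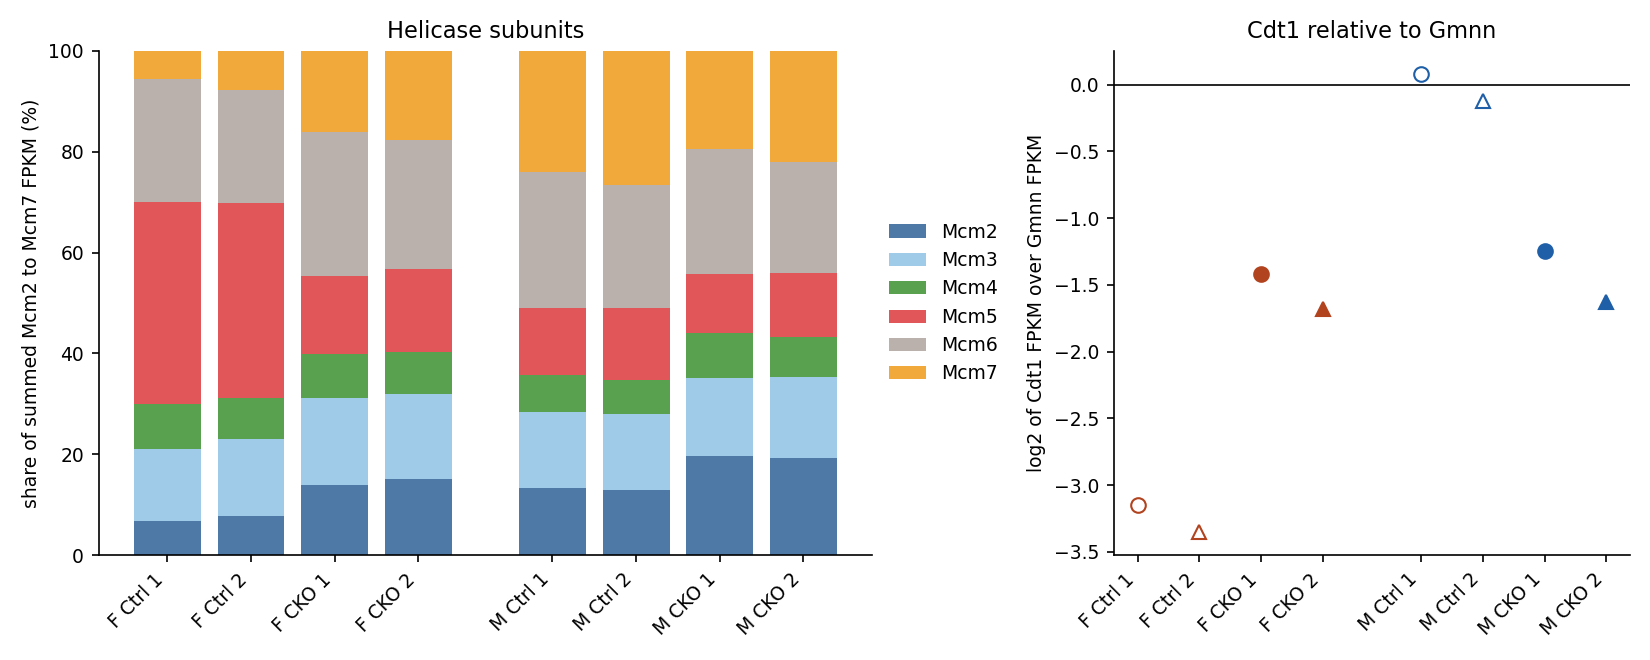
Share of each of Mcm2 to Mcm7 in their summed FPKM (percent, left) and the log2 ratio of Cdt1 to Gmnn (right) in the 8 libraries. Mcm5 takes 40.1% and 38.7% in the female controls, and the ratio is higher in female Snf5 CKO than in control and lower in male Snf5 CKO than in control.

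Promoters were described as well, since genes of this group are textbook targets of E2F factors. Whether these factors had a part in the changes was not tested. RefSeq promoters of GRCm38, the same assembly as mm10, were at hand for 8 of the 10 genes, Mcm2, Mcm3, Mcm5, Mcm6, Mcm7, Mcm10, Cdt1 and Cdc6, and not for Mcm4 and Gmnn. The 250 bases before each start were searched on both strands for the E2F octamers TTTCCCGC, TTTCGCGC, TTTGCCGC and TTTGGCGC. Of the 8 genes, 4 held a match, beside 583 of 27025 genes (2.16%) and 611 of 32851 promoters (1.86%) in the whole table. The 4 were Mcm5, Mcm6, Mcm7 and Cdc6. The windows of 30 bases are shown for these 4 genes, on the strand of the gene, with the octamer or its reverse complement in capitals.
Mcm5, chr8:75109345-75109374, plus strand: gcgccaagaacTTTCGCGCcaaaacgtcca
Mcm6, chr1:128359797-128359826, minus strand: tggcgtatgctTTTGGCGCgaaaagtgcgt
Mcm6, chr1:128359734-128359763, minus strand: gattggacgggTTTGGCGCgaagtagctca
Mcm7, chr5:138172030-138172059, minus strand: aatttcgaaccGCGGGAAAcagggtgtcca
Cdc6, chr11:98908002-98908031, plus strand: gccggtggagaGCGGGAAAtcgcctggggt

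In Mcm5 and in the farther window of Mcm6 a match on the other strand overlapped the one shown, since TTTCGCGC and TTTGGCGC share bases when they face each other, so Mcm5 had 2 matches and Mcm6 had 3. Mcm7 had 2 promoters in the table and a match in 1 of them, in a stretch that the annotation gives to exons of Mcm7 and of its neighbour Ap4m1. The window of Cdc6 lies inside the annotated gene, and those of Mcm5 and Mcm6 lie outside annotated genes. A match is a description of letters in the window, and no match says only that these letters were not found there.

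Cdt1 (chr8:122568015-122573130), the loader that brings the helicase to the origin recognition complex, was at 14.9 and 16.4 FPKM in the female controls and at 54.9 and 53.8 FPKM in female Snf5 CKO. The replicates lay close together and the groups far apart, and the rise was 1.74 on the log2 scale (SE 0.16, adjusted p = 0.00025 from limma), with differences of 1.82 and 1.66 within replicates 1 and 2. In males Cdt1 was at 29.8 and 31.8 FPKM in the controls and at 47.8 and 43.8 FPKM in Snf5 CKO, a rise of 0.56 (SE 0.16, adjusted p = 0.042). The male groups did not overlap. The male call was lost without any 1 of the 4 libraries, with an adjusted p of 0.23 without control replicate 1, 0.16 without control replicate 2, 0.23 without Snf5 CKO replicate 1 and 0.15 without Snf5 CKO replicate 2, and it was lost in 8 of 14 alternatives in all, which gave an adjusted p between 0.0018 and 0.53. The locus overlaps Gm20388, an annotated gene on the same strand.

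Cdc6 (chr11:98907702-98923942), an ATPase that loads the helicase together with Cdt1, was at 8.75 and 8.43 FPKM in the female controls and at 27.6 and 20.3 FPKM in female Snf5 CKO. It was the least abundant of the 10 genes in the male controls, at 2.25 and 1.41 FPKM, and was at 15.2 and 9.24 FPKM in male Snf5 CKO. Every Snf5 CKO library was above both controls of its sex. The log2 fold change was 1.37 in females (SE 0.20, adjusted p = 0.0014) and 2.202 in males (SE 0.31, adjusted p = 0.0054). The ratio of the male means was 6.67, and the fold change on the log2(FPKM + 1) scale understates it because the levels in control were low.

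Mcm10 (chr2:4990724-5012791), which joins the helicase when it is switched on, was at 13.5 and 8.94 FPKM in the female controls and at 21.2 and 15.7 FPKM in female Snf5 CKO. The groups did not overlap, but the gap between them was smaller than the spread within either. The rise was 0.68 on the log2 scale (SE 0.25, adjusted p = 0.049), and the call was lost in 8 of 14 alternatives, which gave an adjusted p between 0.0022 and 0.23; without female control replicate 2 it was 0.22, with a log2 fold change of 0.41, and without female Snf5 CKO replicate 1 it was 0.23. In males Mcm10 was at 24.0 and 16.6 FPKM in the controls and at 34.9 and 21.4 FPKM in Snf5 CKO. The male groups overlapped, and the log2 fold change of 0.43 (SE 0.31, adjusted p = 0.30) did not pass the test; it was 0.69 and 0.18 without male control replicates 1 and 2 and 0.093 and 0.78 without male Snf5 CKO replicates 1 and 2. Within replicates 1 and 2 the male log2 difference was 0.53 and 0.34, and with replicate number as a block the adjusted p was 0.0056, within a range of 0.0056 to 0.85. A further locus named Mcm10 in the male table had a mean of 0.471 FPKM and was not used.

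Gmnn (chr13:24751845-24761937), the inhibitor of Cdt1, was at 132 and 167 FPKM in the female controls and at 147 and 173 FPKM in female Snf5 CKO. The female groups overlapped, and the log2 fold change of 0.10 (SE 0.21, adjusted p = 0.69) did not pass the test; it was -0.069 and 0.27 without female control replicates 1 and 2 and 0.22 and -0.014 without female Snf5 CKO replicates 1 and 2. In males Gmnn was at 28.1 and 34.6 FPKM in the controls and at 113 and 135 FPKM in Snf5 CKO. Both male Snf5 CKO libraries were far above both controls. The rise was 1.95 on the log2 scale (SE 0.20, adjusted p = 0.0028), with differences of 1.97 and 1.94 within replicates 1 and 2. Levels were not tested between the sexes, since the tables were normalized apart.

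The ratio of Cdt1 to Gmnn within a library sets loader against inhibitor. Its log2 value was -3.15 and -3.35 in the female controls and -1.42 and -1.68 in female Snf5 CKO, higher in both Snf5 CKO libraries, with a difference of the means of 1.70. In males it was 0.08 and -0.12 in the controls and -1.24 and -1.63 in Snf5 CKO, lower in both, with a difference of the means of -1.42. The ratio thus differed in opposite directions in the sexes, and the Snf5 CKO libraries of both sexes lay between -1.68 and -1.24. This ratio was described and not tested.

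The difference between the sexes was tested as the female change minus the male change over the 8 libraries. It passed for 4 of the 10 licensing genes, beside 45.3% of the 10472 genes tested in both tables, a share near theirs. It was positive for 2 of the 10, beside 21.8% of all, and negative for 2, beside 23.5%. Mcm7 rose more in females by 1.65 on the log2 scale (SE 0.27, adjusted p = 0.0027), and Cdt1 by 1.18 (SE 0.19, adjusted p = 0.0027). Gmnn had a change lower in females by 1.85 (difference -1.85, SE 0.28, adjusted p = 0.0019), and Mcm5 a difference of -1.09 (SE 0.27, adjusted p = 0.013).

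The difference of Mcm5 was lost without female Snf5 CKO replicate 2 (adjusted p = 0.054) and with the common sum (adjusted p = 0.22), within a range of 4.8e-05 to 0.22. That of Mcm7 was lost on linear FPKM (adjusted p = 0.086), within a range of 0.00016 to 0.086. On that scale the difference compares gains in FPKM, not ratios, between sexes that were normalized apart. The differences of Cdt1 and Gmnn passed under each setting that was run. For Mcm2, Mcm3, Mcm4, Mcm6, Mcm10 and Cdc6 no difference between the sexes was shown. The difference of Cdc6 was -0.84 (SE 0.39, adjusted p = 0.12). With a library left out it lay between -1.17 and -0.50, the latter without male Snf5 CKO replicate 1. With all libraries kept it lay between -1.21 and -0.67 on the log2 scale. Without male Snf5 CKO replicate 2 the adjusted p of Cdc6 was 0.039. With replicate number as a block the differences of Mcm2 (adjusted p = 0.015), Mcm6 (adjusted p = 0.015) and Cdc6 (adjusted p = 0.0070) passed as well, when 71.4% of all genes did, and their ranges over the alternatives were 0.015 to 0.60, 0.015 to 0.85 and 0.0070 to 0.47.

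Genes of dividing cells gave the setting of these values. Mki67, a marker of cycling cells, was at 2.51 and 1.80 FPKM in the male controls and at 17.5 and 11.6 FPKM in male Snf5 CKO. It rose by 2.28 on the log2 scale in males (SE 0.27, adjusted p = 0.0037). In females it was at 29.2 and 19.1 FPKM in the controls and at 21.2 and 13.4 FPKM in Snf5 CKO, with overlapping groups, and the log2 fold change of -0.46 (SE 0.28, adjusted p = 0.19) did not pass, though with replicate number as a block the adjusted p was 0.0073 and without female control replicate 2 it was 0.040, within a range of 0.0073 to 0.71. The female log2 fold change was -0.17 and -0.76 without female control replicates 1 and 2 and -0.78 and -0.15 without female Snf5 CKO replicates 1 and 2.

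Top2a, the topoisomerase of late S phase and mitosis, fell in females, from 167 and 150 FPKM in the controls to 91.4 and 77.9 FPKM in female Snf5 CKO (log2 fold change -0.90, SE 0.19, adjusted p = 0.0055). In males it was at 68.9 and 43.1 FPKM in the controls and at 124 and 72.6 FPKM in Snf5 CKO, and the log2 fold change of 0.79 (SE 0.36, adjusted p = 0.13) did not pass, although the groups did not overlap. With replicate number as a block the male adjusted p was 0.00020 and without male Snf5 CKO replicate 2 it was 0.039, within a range of 0.00020 to 0.42; the male log2 fold change was 0.46 without male control replicate 2 and 0.41 without male Snf5 CKO replicate 1. Pcna, the sliding clamp of the polymerases, was at 184 and 230 FPKM in the female controls and at 247 and 304 FPKM in female Snf5 CKO (log2 fold change 0.41, SE 0.23, adjusted p = 0.16; 0.0025 with the block, within a range of 0.0025 to 0.58); the log2 fold change was 0.25 without female control replicate 1 and 0.26 without female Snf5 CKO replicate 2. In males it rose from 90.6 and 112 FPKM to 262 and 340 FPKM (log2 fold change 1.56, SE 0.24, adjusted p = 0.0067).

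All 3 differed between the sexes: the female change minus the male change was -2.75 for Mki67 (adjusted p = 0.0025), -1.69 for Top2a (adjusted p = 0.015) and -1.14 for Pcna (adjusted p = 0.022). For Top2a this was lost without female control replicate 1 (adjusted p = 0.056), without female Snf5 CKO replicate 2 (adjusted p = 0.051) and with the common sum (adjusted p = 0.13), within a range of 1.4e-05 to 0.13. For Pcna it was lost in 5 of 17 alternatives, among them without female control replicate 2 (adjusted p = 0.072), without female Snf5 CKO replicate 1 (adjusted p = 0.078), without male control replicate 1 (adjusted p = 0.069) and without male Snf5 CKO replicate 2 (adjusted p = 0.064), within a range of 3.2e-05 to 0.078. For Mki67 it was lost on linear FPKM (adjusted p = 0.054), within a range of 1.6e-05 to 0.054.

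The rest of the replication machinery was described through 64 other genes in 6 lists, which were tested in both sexes. In females 18 rose (28.1%, beside 26.9% of all tested genes) and 17 fell (26.6%, beside 34.6%). In males 28 rose (43.8%, beside 21.0%) and 2 fell (3.1%, beside 25.3%). The female number that rose was 11 without female Snf5 CKO replicate 1. The male number that rose was smaller without male control replicate 2. It was 13 with the common sum, when 1402 of 12279 male genes were called higher. The male number that fell was smaller without male control replicate 1 or without male Snf5 CKO replicate 2. It was 12 with replicate number as a block, when 5058 of 12279 male genes were called lower and 4313 higher. With the block 3933 of 11529 female genes were called higher and 4909 lower.

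**Figure D5:**
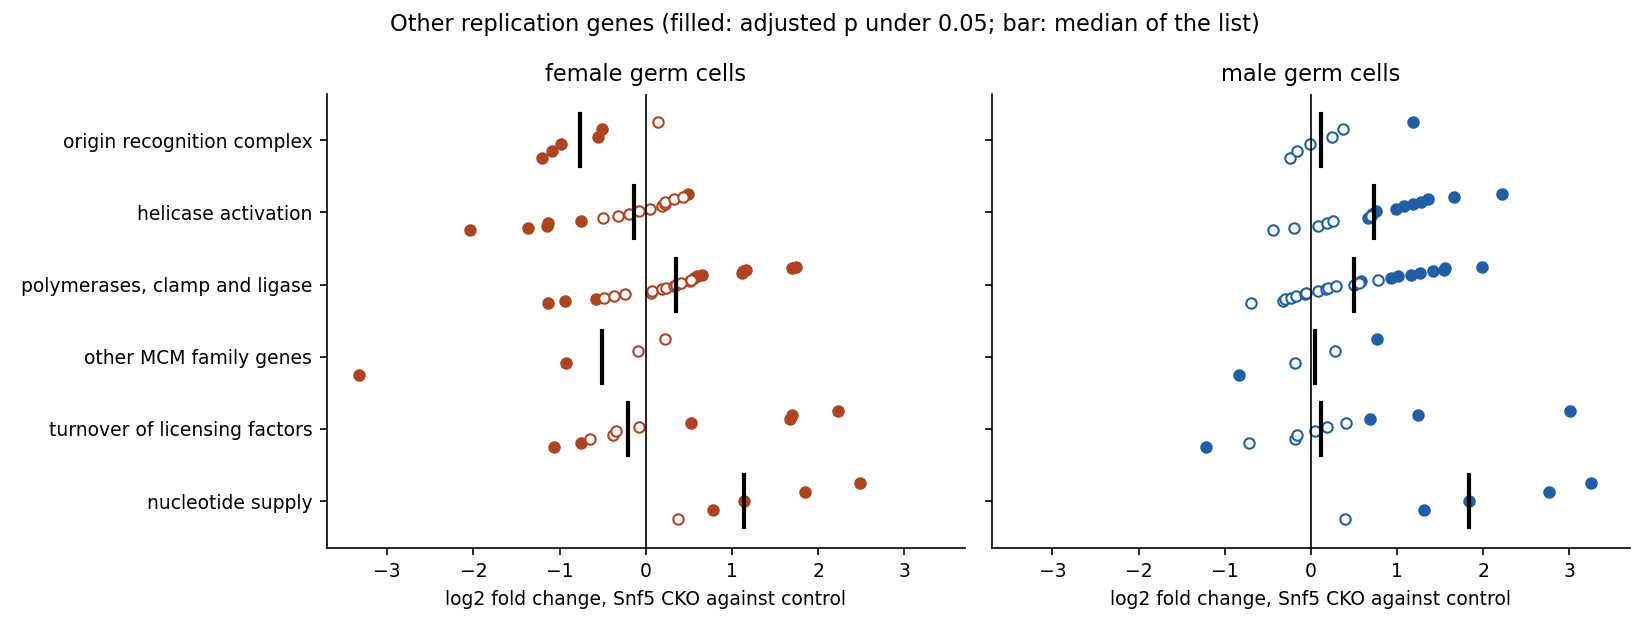
Log2 fold change in Snf5 CKO against control of the 64 other replication genes by list, female on the left and male on the right, filled where the adjusted p was under 0.05, with a bar at the median of each list. The origin recognition complex has a median of -0.77 in females, and nucleotide supply one of 1.83 in males.

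The origin recognition complex, on which the helicase is loaded, went the other way from the helicase in females. Of its 6 genes 5 fell, beside 34.6% of all tested genes, and Orc6 did not pass; the median was -0.77. Orc3 was at 151 and 108 FPKM in the female controls and at 62.2 and 47.9 FPKM in female Snf5 CKO (log2 fold change -1.21, SE 0.23, adjusted p = 0.0042). Orc1, the subunit that comes and goes with the cell cycle, was at 60.9 and 52.7 FPKM against 29.97 and 22.7 FPKM (log2 fold change -1.09, SE 0.20, adjusted p = 0.0032). For both genes the groups did not overlap. Orc4 fell by 0.99, Orc5 by 0.55 (adjusted p = 0.027) and Orc2 by 0.51 (adjusted p = 0.038). The calls of Orc5 and Orc2 were lost with either rescaling and without female control replicate 1 (adjusted p 0.15 and 0.19), Snf5 CKO replicate 1 (0.085 and 0.080) and Snf5 CKO replicate 2 (0.14 and 0.22), when 3 of the 6 fell, and that of Orc2 also without control replicate 2 (0.060). Over the alternatives the adjusted p lay between 0.0018 and 0.15 for Orc5 and between 0.0026 and 0.22 for Orc2.

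In males Orc1 alone of the 6 passed, at 8.93 and 5.67 FPKM in the controls and 22.4 and 13.6 FPKM in Snf5 CKO, a rise of 1.18 (SE 0.33, adjusted p = 0.037). Both male Snf5 CKO libraries were above both controls. The call was lost in 6 of 14 alternatives, among them without male control replicate 2 (adjusted p = 0.13) and without male Snf5 CKO replicate 1 (adjusted p = 0.10), when none of the 6 genes passed, and with replicate number as a block 2 of the 6 rose and 2 fell. The adjusted p of Orc1 lay between 0.00026 and 0.13. The change differed between the sexes by -2.27 for Orc1 (adjusted p = 0.0040), -1.23 for Orc4 (adjusted p = 0.0074) and -1.20 for Orc3 (adjusted p = 0.015). With the common sum the differences of Orc4 (adjusted p = 0.074) and Orc3 (adjusted p = 0.19) were lost, and that of Orc3 also without female Snf5 CKO replicate 2 (adjusted p = 0.056).

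Of 16 genes that turn the loaded helicase on, 5 fell in females (31.2%, beside 34.6% of all tested genes), a share near theirs. Only 1 rose there (6.25%, beside 26.9%). Gins3, a subunit of the GINS complex that joins the active helicase, was at 51.1 and 41.6 FPKM in the female controls and at 10.5 and 10.4 FPKM in female Snf5 CKO (log2 fold change -2.04, SE 0.18, adjusted p = 0.00021). Both Snf5 CKO libraries were at about the same low level, far under both controls. Topbp1 fell by 1.37, Ticrr by 1.15, Cdc7, the kinase that acts on the loaded helicase, by 1.13, and Tipin by 0.75. The call of Tipin was lost with median-of-ratios rescaling (adjusted p = 0.064) and without any 1 of the 4 female libraries, with an adjusted p of 0.070 and 0.12 without control replicates 1 and 2 and of 0.16 and 0.053 without Snf5 CKO replicates 1 and 2. The gene that rose was Gins4, named after its values were seen, and its call was lost without any 1 of the 4 female libraries. Over the other settings that kept all libraries the number of the 16 that rose lay between 0 and 4.

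In males 10 of the 16 rose, beside 21.0% of all tested genes, with a median of 0.73. Gins2 was at 5.07 and 8.30 FPKM in the male controls and at 29.1 and 39.5 FPKM in male Snf5 CKO (log2 fold change 2.22, SE 0.29, adjusted p = 0.0046). Cdc45, which completes the active helicase with GINS, was at 22.2 and 23.1 FPKM against 74.6 and 72.3 FPKM (log2 fold change 1.66, SE 0.16, adjusted p = 0.0026). Both genes had all Snf5 CKO libraries above all controls. The number that rose was 6 without male control replicate 1, 5 without male control replicate 2, 5 without male Snf5 CKO replicate 1 and 3 with the common sum. The locus of Cdc45 overlaps Ufd1 and that of Gins2 overlaps Gse1, each on the other strand. The female change minus the male change was -2.22 for Gins3, -2.55 for Topbp1, -2.42 for Ticrr, -2.11 for Tipin and -2.17 for Gins2, with an adjusted p of 0.0046 or less in each. Of the 16 genes, 9 had a passing negative difference, beside 23.5% of all genes, and Gins4 a passing positive one (0.70, adjusted p = 0.027). The number of negative ones was 5 with the common sum and 7 to 9 with a library left out; the positive one passed only when female control replicate 1 or male control replicate 1 was the library left out.

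Polymerases, the clamp and its loader, single-strand binding proteins and the ligase were mixed in females, where 9 of 23 rose, beside 26.9% of all tested genes, and 3 fell, beside 34.6%, with a median of 0.35. Pole2, an accessory subunit of polymerase epsilon, was at 3.99 and 4.80 FPKM in the female controls and at 16.6 and 17.5 FPKM in female Snf5 CKO (log2 fold change 1.75, SE 0.19, adjusted p = 0.00038). Its female locus (chr12:69157722-69361473) reaches far beyond the gene (chr12:69201773-69228195) and overlaps others, among them Rps29, Rpl36al, Klhdc2 and Nemf, and its male locus is listed together with Dnaaf2. Rpa1, which coats single-stranded DNA, was at 21.7 and 19.2 FPKM against 82.9 and 56.5 FPKM (log2 fold change 1.70, SE 0.22, adjusted p = 0.00085). In both, the Snf5 CKO libraries stood clear of the controls. Other subunits of the same enzyme went the other way: Pole, its catalytic subunit, fell by 1.13 and Pole4 by 0.94, and Rfc4 of the clamp loader fell by 0.58. The number that rose was 5 without female Snf5 CKO replicate 1 and with the common sum. The call of Rfc4 was lost in 7 of 14 alternatives, with an adjusted p between 0.00081 and 0.24, among them without control replicates 1 (0.24) and 2 (0.11) and without Snf5 CKO replicates 1 (0.16) and 2 (0.18). With replicate number as a block 6 of the 23 fell, when 4909 of 11529 female genes were called lower.

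In males 9 of the 23 rose, beside 21.0% of all tested genes, with a median of 0.50, or 0.32 with the common sum. Pold2 was at 13.3 and 12.04 FPKM in the male controls and at 54.1 and 51.7 FPKM in male Snf5 CKO (log2 fold change 1.98, SE 0.16, adjusted p = 0.0023), and Pcna is given above. The replicates of Pold2 differed little beside the gap between the groups. With replicate number as a block 15 rose and 4 fell, when 4313 of 12279 male genes were called higher and 5058 lower. The change differed between the sexes by 1.75 for Rpa1 (adjusted p = 0.0057), -1.87 for Pole4 (adjusted p = 0.0020) and -0.82 for Pold2 (adjusted p = 0.011); that of Pold2 was lost with the common sum (adjusted p = 0.33) and on linear FPKM (0.25), and that of Rpa1 on linear FPKM (0.071).

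Among 4 relatives of the helicase subunits that are not part of the ring, 2 fell in females, beside 34.6% of all tested genes, and in males 1 rose and 1 fell, beside 21.0% and 25.3%. Mcmdc2, known for its part in meiotic recombination, was at 50.7 and 35.6 FPKM in the female controls and at 3.46 and 3.20 FPKM in female Snf5 CKO (log2 fold change -3.33, SE 0.22, adjusted p = 0.00010). In males it was at 2.997 and 3.33 FPKM in the controls and at 1.31 and 1.34 FPKM in male Snf5 CKO (log2 fold change -0.84, SE 0.17, adjusted p = 0.015). It fell in both sexes, and more in females by 2.49 on the log2 scale (difference -2.49, adjusted p = 0.00070). Mcm8, also of meiotic recombination, was at 66.3 and 48.4 FPKM in the female controls and at 33.6 and 25.8 FPKM in Snf5 CKO and fell by 0.92 (adjusted p = 0.011). Mcmbp, which binds Mcm subunits, was at 34.3 and 28.0 FPKM in the male controls and at 59.2 and 47.9 FPKM in Snf5 CKO and rose by 0.76 (adjusted p = 0.032); its call was lost without control replicates 1 (0.068) and 2 (0.17) and without Snf5 CKO replicates 1 (0.16) and 2 (0.053), when none of the 4 relatives rose, within a range of 0.00026 to 0.32.

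Genes of the ubiquitin ligases that remove licensing factors were tested as a list of 10. In females 4 rose, beside 26.9% of all tested genes, and 2 fell, beside 34.6%. Skp2, a substrate receptor for Cdt1, was at 2.05 and 1.36 FPKM in the female controls and at 13.3 and 10.0 FPKM in female Snf5 CKO (log2 fold change 2.23, SE 0.23, adjusted p = 0.00035), and Fzr1, the activator of the anaphase-promoting complex outside mitosis, at 16.8 and 17.6 FPKM against 56.3 and 59.9 FPKM (log2 fold change 1.70, SE 0.16, adjusted p = 0.00026). The groups of both genes stood well apart. The others that rose were Cdc20 and Fbxo5, named after their values were seen. Dtl, the receptor that marks Cdt1 for removal in S phase, fell by 1.06 and Cul1 by 0.75. The call of Cul1 was lost in 6 of 14 alternatives, with an adjusted p between 0.00029 and 0.23, among them without female control replicate 1 (0.17) and without female Snf5 CKO replicate 2 (0.23, with a log2 fold change of -0.48). The number that fell was 1 without either of these libraries, and 5 with replicate number as a block.

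In males 3 of the 10 rose, beside 21.0% of all tested genes, and 1 fell, beside 25.3%. Fbxo5, an inhibitor of the anaphase-promoting complex, which removes geminin, was at 7.18 and 6.19 FPKM in the male controls and at 65.7 and 56.2 FPKM in male Snf5 CKO (log2 fold change 3.01, SE 0.18, adjusted p = 0.0021). Skp2 was at 7.62 and 6.14 FPKM against 20.7 and 14.9 FPKM (log2 fold change 1.24, SE 0.24, adjusted p = 0.013). The Snf5 CKO libraries were above the controls for both. Fzr1 rose as well, named for males after its values were seen, and Cul4b, a scaffold of the ligase that acts with Dtl, fell by 1.21 (adjusted p = 0.016). The number that rose was 1 without male control replicate 2, when the adjusted p of Skp2 was 0.056, 1 with the common sum, when it was 0.092, and 5 with replicate number as a block. The call of Cul4b was lost without male control replicate 1 (adjusted p = 0.065) and without male Snf5 CKO replicate 2 (adjusted p = 0.060), when none of the 10 fell, and the adjusted p of Cul4b lay between 7.2e-05 and 0.065; 3 of the 10 fell with the block. The change differed between the sexes by -2.49 for Fbxo5 (adjusted p = 0.00035).

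Genes of nucleotide supply rose in both sexes, 4 of 5 in each, beside 26.9% of all tested genes in females and 21.0% in males. Their median was 1.14 in females, or 0.71 without female control replicate 1, and 1.83 in males. Rrm2, the subunit of ribonucleotide reductase made in S phase, was at 50.3 and 46.7 FPKM in the female controls and at 183 and 173 FPKM in female Snf5 CKO (log2 fold change 1.85, SE 0.17, adjusted p = 0.00023). In males it was at 8.57 and 5.91 FPKM against 87.4 and 66.5 FPKM (log2 fold change 3.25, SE 0.25, adjusted p = 0.0022). Every Snf5 CKO library was far above the controls of its sex. Tyms, thymidylate synthase, was at 7.83 and 10.2 FPKM in the female controls and at 52.4 and 57.4 FPKM in female Snf5 CKO (log2 fold change 2.49, SE 0.19, adjusted p = 0.00014), and Tk1, thymidine kinase, was at 4.12 and 5.15 FPKM in the male controls and at 31.9 and 43.2 FPKM in male Snf5 CKO (log2 fold change 2.76, SE 0.23, adjusted p = 0.0023). The male gene that did not pass was Rrm1, named after its value was seen.

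The genes whose pattern was most like the median of Mcm2 to Mcm7 were sought over the 8 libraries, with the log2(FPKM + 1) values centred in each table and the root mean square difference as the measure. Among 10462 genes, with a median difference of 0.756, the closest were Prc1 (0.0553), Akap1 (0.0678), Prep (0.0684), Zbtb1 (0.0695) and Khnyn (0.0713). Prc1, which bundles microtubules in cell division, was at 28.3 and 25.4 FPKM in the female controls and at 69.1 and 56.1 FPKM in female Snf5 CKO, and at 40.1 and 28.2 FPKM against 82.1 and 56.8 FPKM in males. It was higher in each Snf5 CKO library than in the controls of its sex. Of the subunits themselves, Mcm3 differed from their median by 0.0386, Mcm6 by 0.0785, Mcm4 by 0.117, Mcm2 by 0.336, Mcm7 by 0.436 and Mcm5 by 0.542. Because these genes were chosen by the same values, their changes are a description.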

How the data were processed

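RNA-Seq of 8 libraries was measured. Per the labels and the paper, the authors made cDNA with SMART-Seq v4 and libraries with Nextera XT and quantified reads on mm10 with TopHat2 and Cufflinks or Cuffdiff, in 1 run per sex. The deposited tables give FPKM for each locus, and their 16 columns with confidence limits were left aside. Relative to control replicate 1, steps of low values gave a depth, up to whole factors, of 1.89, 1.25 and 2.43 in female control 2, Snf5 CKO 1 and Snf5 CKO 2, and of 0.946, 1.20 and 1.47 in males.

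Each sex was fitted with limma 3.58.1 in R 4.3.3 on log2(FPKM + 1), with eBayes and a trend, for genes with a name and a mean level from 1 FPKM upward, adjusted by Benjamini-Hochberg over all of them. The difference between the sexes was a contrast over the 8 libraries for genes tested in both tables. The smallest p that an exact two-sided permutation test allows with 2 libraries per group is 0.333. The replicate number was read as a shared experiment, in females by inference, and used as a block in an alternative; across genes, which are not independent replicates, the control and Snf5 CKO differences between replicates correlated at 0.5 (female) and 0.607 (male). Other alternatives changed the pseudocount, filter, scaling, moderation, scale, loci, call rule and libraries.

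Named were Smarcb1, the 10 licensing genes, Mki67, Top2a, Pcna, from each list and sex the 2 called genes with the largest change and each called gene against the direction of most called licensing genes, and the 5 genes most like Mcm2 to Mcm7. Members and lists were chosen with earlier results of these data known. Promoters are from RefSeq and annotation from GENCODE; 1 was added to the starts of loci.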

Additional observations from a re-analysis of the deposited data

Results flagged for a closer look

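For 29 of 46 named genes, many of them chosen for their change within a sex, the female change in Snf5 CKO differed from the male change by the tested contrast over the 8 libraries, as for 45.3% of all 10472 genes tested; values are the female change minus the male change on the log2 scale. Among the licensing genes the difference was 1.65 for Mcm7, 1.18 for Cdt1, -1.09 for Mcm5 and -1.85 for Gmnn, and for the deleted gene Smarcb1 it was 1.41. Among genes of dividing cells it was -2.75 for Mki67, -1.69 for Top2a and -1.14 for Pcna.

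In the origin recognition complex the difference was -2.27 for Orc1, -1.23 for Orc4 and -1.20 for Orc3. Among genes that switch the helicase on it was -2.55 for Topbp1, -2.42 for Ticrr, -2.22 for Gins3, -2.17 for Gins2, -2.11 for Tipin, -1.43 for Cdc45 and -1.39 for Cdc7. Among polymerase genes and their partners it was 1.75 for Rpa1, -1.87 for Pole4 and -0.82 for Pold2, and among relatives of the ring subunits -2.49 for Mcmdc2. For the ligases of licensing factors it was 1.02 for Fzr1, 0.98 for Skp2, -1.11 for Dtl and -2.49 for Fbxo5, and for nucleotide supply 0.66 for Tyms, -1.39 for Rrm2 and -1.63 for Tk1. Pole2 passed as well (1.29, adjusted p = 0.018) but is not counted, because the contrast paired loci by name and so used a male locus other than the one taken for this gene. The male loci of Orc3, Rpa1, Pole4 and Dtl reach further than the female ones, over Rars2, Smyd4 and Ints7 for Orc3, Rpa1 and Dtl. The differences of Skp2 and Tyms were each lost in 11 of 17 alternatives, those of Dtl and Tk1 each in 6. For Skp2 the adjusted p was 0.055 and 0.14 without female control replicates 1 and 2, 0.15 and 0.054 without female Snf5 CKO replicates 1 and 2, 0.13 and 0.061 without male control replicates 1 and 2, and 0.13 without male Snf5 CKO replicate 2. For Tyms it was 0.13 without female control replicate 1, 0.091 and 0.15 without female Snf5 CKO replicates 1 and 2, 0.089 and 0.12 without male control replicates 1 and 2, and 0.13 and 0.074 without male Snf5 CKO replicates 1 and 2. For Dtl it was 0.11 and 0.052 without female control replicates 1 and 2, 0.11 without female Snf5 CKO replicate 2, 0.093 without male control replicate 2 and 0.089 without male Snf5 CKO replicate 1. For Tk1 it was 0.083 and 0.054 without female Snf5 CKO replicates 1 and 2, 0.072 without male control replicate 1 and 0.077 without male Snf5 CKO replicate 2, and the difference was -1.08 without female control replicate 2. On linear FPKM the difference turned around for Skp2 (-0.967 FPKM, adjusted p = 0.83, range 0.0016 to 0.83), Tyms (-15.5 FPKM, adjusted p = 0.075, range 0.0022 to 0.15) and Rrm2 (59.7 FPKM, adjusted p = 0.0084, range 3.3e-05 to 0.13). With the common sum the differences of Cdc7 (adjusted p = 0.13), Cdc45 (0.054), Fzr1 (0.059) and Rrm2 (0.13) were lost too, and that of Fzr1 also on linear FPKM (adjusted p = 0.15, range 0.00011 to 0.15).

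The log2 ratio of Cdt1 to Gmnn was higher in both female Snf5 CKO libraries than in the controls and lower in both male ones, a difference of 3.12 between the changes of the means, which was not tested.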

How the results depend on the processing

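Each result was recomputed without the filter on low values or with one at a mean of 5 FPKM, with a pseudocount of 0.1, a common sum over named loci, median-of-ratios rescaling, no trend, linear FPKM, replicate number as a block, only loci with status OK, unnamed loci kept, each library left out and, for counts, a limit of 1 on the absolute log2 fold change. Unnamed loci could not be kept in the test between the sexes, since they have no partner in the other table. With a library left out, the lone library of its group is assumed to vary like the other groups.

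Of the licensing genes, 7 to 8 were called higher in females under each alternative, and 1, Mcm5, was called lower with the block. In males 3 to 5 were called higher with a library left out, 3 with the common sum, 5 with the fold change limit, and otherwise 6 to 10. The number that differed between the sexes was 7 with the block and otherwise 3 to 5. Of the other replication genes, 11 to 15 rose in females with a library left out and 11 with the fold change limit, under which 9 fell. In males 18 to 22 rose with a library left out and 13 with the common sum; 1 to 2 fell with a library left out, 1 with the filter at 5 FPKM, 1 with the fold change limit and 12 with the block.

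With a library left out, the log2 fold change of female Gmnn lay between -0.069 and 0.27, negative without control replicate 1 or Snf5 CKO replicate 2. The female minus male difference lay between -0.037 and 0.39 for Mcm3, negative without male control replicate 1. It lay between -0.46 and 0.049 for Mcm4, positive without male control replicate 2 or male Snf5 CKO replicate 1, and was 6.9e-05 with the common sum. For Mcm10 it lay between -0.093 and 0.59, negative without female control replicate 2, male control replicate 1 or male Snf5 CKO replicate 2. On linear FPKM it changed sign for Mcm2 (-24.3 FPKM), Mcm10 (-0.596 FPKM), Cdc6 (4.99 FPKM), Skp2 (-0.967 FPKM), Tyms (-15.5 FPKM) and Rrm2 (59.7 FPKM, adjusted p = 0.0084, within a range of 3.3e-05 to 0.13). On linear FPKM the difference compares gains in FPKM, not ratios, between sexes that were normalized apart. It is thus another quantity, and its sign can differ from that of the log2 difference. The cause of the other sign changes was not tested. Among the results recomputed gene by gene, the block changed the calls of male Mcm6, Mcm10 and Top2a, of female Mcm5, Mki67 and Pcna, and of the differences of Mcm2, Mcm6 and Cdc6; list genes in a sex where they were not named were recomputed only within the counts of their lists. The tables hold no counts, so what depth limits could not be computed.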
